A study of Mus musculus with 6 samples.

Results

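The genes described here carry the symbols Vps and Chmp, which name parts of the machinery that sorts membrane cargo through endosomes and builds lysosome-related granules. A gene was a member if its symbol was Vps or Chmp followed by a number, with or without a closing letter and digit, which took 42 of the 24346 symbols in the expression tables. The study measured RNA by sequencing in blood platelets (labelled thrombocytes) of 2 groups of mice, 3 libraries from wild-type animals and 3 from animals homozygous for a knock-in of R734C, which replaces 1 residue in the cytoplasmic region of integrin β3, a platelet adhesion receptor subunit. The change sits in the animal's own gene, so it is not limited to platelets. The labels give no strain, age or sex, no treatment, and no statement on whether the libraries of a group came from separate animals, so p-values measure the spread between these libraries, which may be technical. The study's stated aim was to learn more about the mutation from gene expression in platelets. A replaced residue is not visible in an expression level, so the genotype labels were not checked by these data.

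Values are FPKM, fragments scaled by the length of the transcript and the size of the library. Levels of different genes can be set side by side only roughly, as the annotation behind the lengths is not named. Libraries held between 8383 and 9006 genes above 0. The commonest ratio of low values gave sequencing depths of 0.882 to 1.05 relative to wild-type library 1, and the absolute depth is unknown. Summed FPKM over all genes ran from 641278 to 708432 in wild-type and from 758381 to 856863 in homozygous libraries, without overlap. All 8 platelet markers were present, with summed levels of 50990 to 53160 FPKM in the wild type and 47558 to 52859 FPKM in the homozygotes. Of these markers Tubb1, the platelet β-tubulin, was itself called lower in the homozygotes (6574 to 3710 FPKM, limma adjusted p = 0.00759), and Pf4 was at 18126 and 22247 FPKM without passing (0.0774). Erythroid markers summed to 37397 to 92489 FPKM in wild-type and 24541 to 178193 FPKM in homozygous libraries, with the highest sums in library 1 of each group. All 8 neutrophil and all 5 B cell markers had a mean under 1 FPKM, as did 7 of 8 T and NK cell markers, the exception being Nkg7. The T and NK list summed to 2.67 to 4.42 FPKM in the wild type and 4.95 to 8.83 FPKM in the homozygotes, and the B cell list to at most 0.185 and 0.693 FPKM, with Cd3e, Cd3d, Cd4, Ms4a1 and Pax5 at 0; their part in the results was not tested. Of 6 monocyte and macrophage markers, Lyz2 was at 7033 to 9127 FPKM and the others summed to at most 3.89 FPKM in a library.

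The products of these genes act in successive steps. ESCRT complexes gather ubiquitinated cargo on the endosome and bud it inward to form multivesicular bodies, ESCRT-III polymers of CHMP proteins cut the neck of the bud, and the VPS4 ATPases take the polymer apart. Retromer returns receptors from endosomes, HOPS and CORVET tether endosomes and lysosomes for fusion, GARP tethers vesicles at the trans-Golgi network, and VPS13 proteins move lipids between membranes. In megakaryocytes and platelets the multivesicular body is a known way station on the road to alpha and dense granules, and VPS33B and VPS16B (encoded by Vipas39) are required for alpha granules. A shared symbol does not make a shared role: Vps72 encodes a chromatin remodelling subunit and Vps9d1 is named for a protein domain, so neither belongs to an endosomal complex as far as is known.

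RefSeq promoter windows (GRCm38.p6, 250 bases before to 50 after a start) were at hand for 26 of the 42 members, in 32 windows. Among the sequences searched was a palindrome built around CACGTG, the core of the CLEAR element that the lysosomal regulator TFEB is known to bind. It reads the same on both strands. It was found in the windows of 3 of 26 members (11.5%), Vps16, Vps26a and Vps33a, against 0.37% of all 27025 symbols and 0.326% of all 32851 windows in the table. Among 70 related endosomal and granule genes in the same table, 1 had it, Rab5a (1.43%). The stretches that hold it are printed because Vps26a is 1 of the 2 tested members whose homozygous libraries all lay above the wild type. Of all tested genes, 14.9% were separated in that direction. Vps16 and Vps33a encode HOPS subunits that bind each other. The stretches were chosen after the matches were seen. Capitals mark the palindrome, and each stretch is given 5′ to 3′ on the strand of its gene.
Vps26a, chr10:62486955-62487014, minus strand: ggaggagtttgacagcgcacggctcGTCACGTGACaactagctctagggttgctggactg
Vps26a, chr10:62486732-62486761, minus strand: atggcctacgGTCACGTGACgggcggcggg
Vps16, chr2:130424290-130424319, plus strand: aggcggcctcGTCACGTGACcccgaagggc
Vps33a, chr5:123573016-123573039, minus strand: tgaacgtcccGTCACGTGACgcag
The copies begin 184 and 153 bases before the respective RefSeq starts of Vps26a, 20 before that of Vps16 and 14 before that of Vps33a, and all but the first Vps26a stretch overlap an annotated exon. CACGTG alone was found in the same 3 members (11.5%, against 8.09% of symbols), AGATAA or TGATAA, read on both strands as GATA-type sequences, in 3 (Vps26b, Vps41 and Vps45; 21.0% of symbols), and CCGGAAGT, an ETS-type sequence read on both strands, in 2 (Vps52 and Vps53; 4.31% of symbols). A match describes letters and not a bound site.

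Chmp5, the member that passed the test between the genotypes, starts 113 bases from Bag1, which lies on the other strand and is transcribed away from it. The part of the stretch between the 2 genes that the RefSeq window covers, up to the base before the first annotated exon of Chmp5, is printed because it lies between a gene that passed the test and a neighbour that did not. Capitals mark CCGCCC, a GC box that Sp-family factors are known to bind, chosen for the search after the sequence had been seen.
Chmp5, chr4:40948303-40948406, plus strand: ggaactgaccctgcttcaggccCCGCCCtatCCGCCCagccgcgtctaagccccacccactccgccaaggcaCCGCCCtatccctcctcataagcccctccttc
This stretch has 3 matches and none of the other searched sequences. On either strand CCGCCC occurred in 18 of 26 members (69.2%) and in 35.7% of all windows (38.2% of symbols).

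Platelets held these mRNAs at widely different levels. Of the 42 members, 3 had a mean of 100 FPKM or more over the 6 libraries, 10 lay between 10 and 100, 16 between 1 and 10, and 11 were under 1 but above 0. Chmp4c, an ESCRT-III gene, and Vps37d, an ESCRT-I gene, were listed at 0 in every library. The 29 members with a mean of at least 1 FPKM had a median of 7.84 FPKM, beside 6.66 FPKM for all 4859 genes at that level. Chmp5, Vps25, Chmp1a and Vps28 made up 69.7% of the summed level of all members. The sum was 830 ± 46.7 FPKM in the wild type and 845 ± 19.3 FPKM in the homozygotes (SD, n = 3 each). As a share of all summed FPKM, which was higher in every homozygous library, the members held 0.125 ± 0.0129% and 0.106 ± 0.00872% (SD, n = 3 each). The shares of single libraries overlapped and were not tested. Without Chmp5 the sum was 665 ± 56.7 and 609 ± 12.2 FPKM (SD, n = 3 each).

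**Figure D1:**
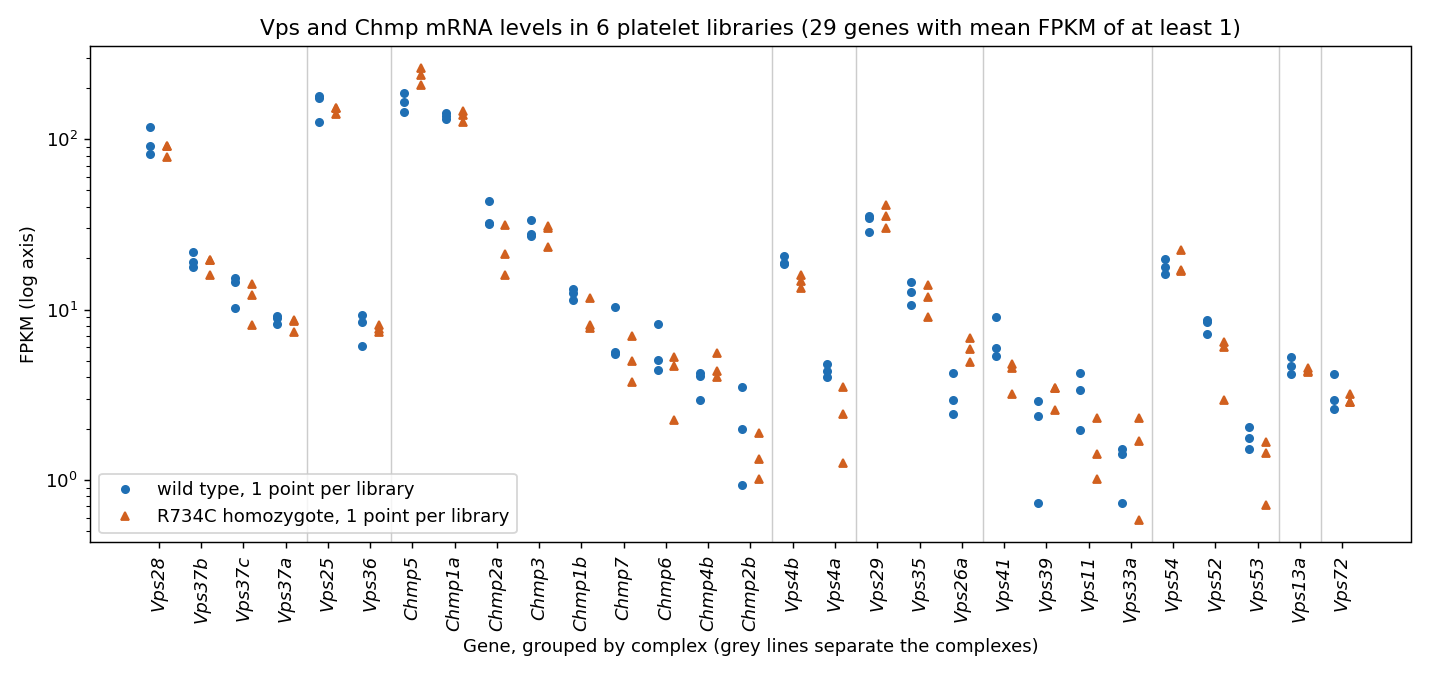
FPKM on a log axis for the 29 members with a mean of at least 1, grouped by complex; circles are the 3 wild-type libraries and triangles the 3 homozygous libraries. Chmp5 is the most abundant gene, at 144 to 186 FPKM in the wild type and 209 to 260 FPKM in the homozygotes, and the HOPS and CORVET genes all have means under 6 FPKM.

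The subunits of 1 complex were not represented evenly. In ESCRT-II, Vps25 had a mean of 154 FPKM and Vps36 of 7.84 FPKM, and their partner Snf8, which carries no Vps symbol, of 16.2 FPKM. In ESCRT-I, Vps28 stood at 91.9 FPKM and Vps37a, Vps37b and Vps37c at 8.49, 18.9 and 12.4 FPKM, with the cargo-binding subunit Tsg101 at 14.8 FPKM and Ubap1 at 277 FPKM. Retromer ran from 34.0 FPKM for Vps29 through 12.1 for its scaffold Vps35 to 4.53 for Vps26a and 0.879 for Vps26b, and GARP from 18.3 for Vps54 to 0.536 for Vps51. Members with short coding sequences were the more abundant: across the 40 members above 0 the Spearman correlation of mean FPKM with the longest annotated coding length was -0.656, and across 4524 tested genes with a coding length it was -0.208. The log2 fold change, homozygote minus wild type, also correlated with coding length, at -0.255 across the 4524 genes and -0.098 across the 29 tested members. Shorter genes thus tended to be higher in the homozygotes over all tested genes. These are correlations across genes of the same libraries, which are not independent replicates, and FPKM itself is divided by length.

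**Figure D2:**
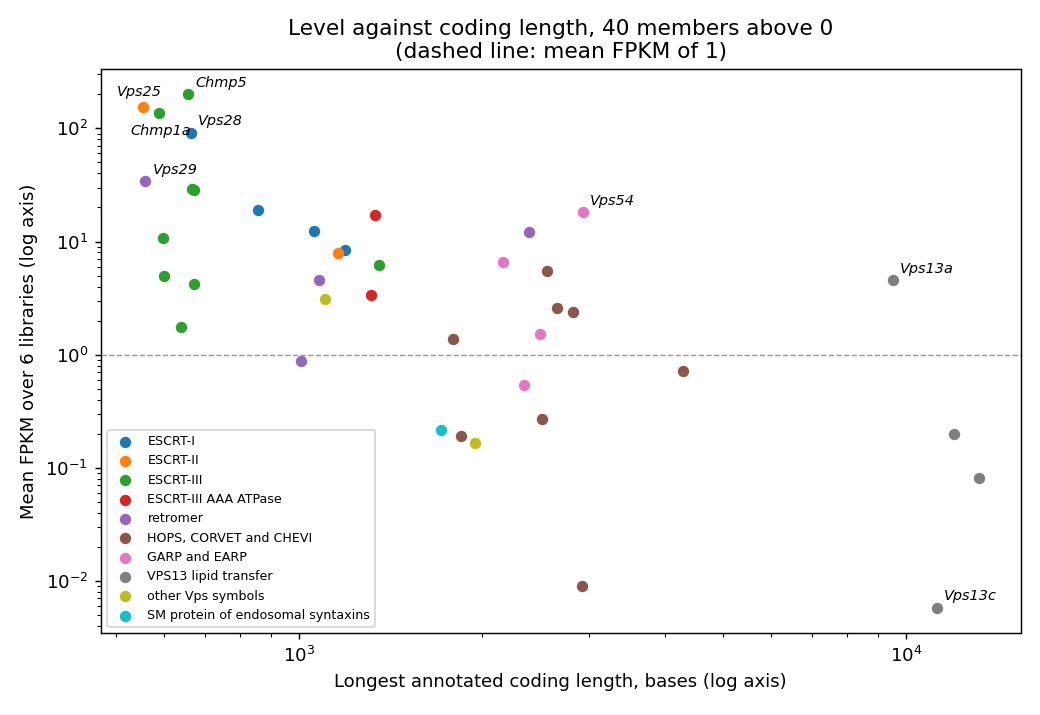
Mean FPKM over the 6 libraries against the longest annotated coding length, both on log axes, for the 40 members above 0 in any library, coloured by complex. ESCRT genes with short coding sequences such as Chmp5, Vps25 and Chmp1a lie at the upper left and the long VPS13 genes at the right, where Vps13a alone exceeds 1 FPKM.

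Between the genotypes, 1 of the 29 tested members passed the test, Chmp5, which was higher in homozygous platelets (limma on log2(FPKM + 1), adjusted p under 0.05 over all 4859 tested genes). That is 3.45% of the members, beside 8.36% of all tested genes called in either direction and 4.36% called higher (3.99% called lower). All genes called were 406, 212 higher and 194 lower (177 higher and 268 lower after rescaling without erythroid and top genes). At an unadjusted p under 0.05 there were 7 of 29 members (24.1%), beside 25.4% of all tested genes. The wild-type and homozygous values of a gene did not overlap for 7 of 29 members (24.1%), 2 higher and 5 lower in the homozygotes. The share was 30.7% over all tested genes, 14.9% higher and 15.8% lower. The median log2 fold change, homozygote minus wild type, was -0.09 over the 29 members and -0.01 over all tested genes, and 21 members (72.4%) had an estimate below 0, beside 51.5% of all tested genes. No member reached a 2-fold difference of group means of FPKM + 1, which 151 of all 4859 tested genes did. In bulk platelet RNA, fewer platelets of a kind and less RNA per platelet cannot be told apart.

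**Figure D3:**
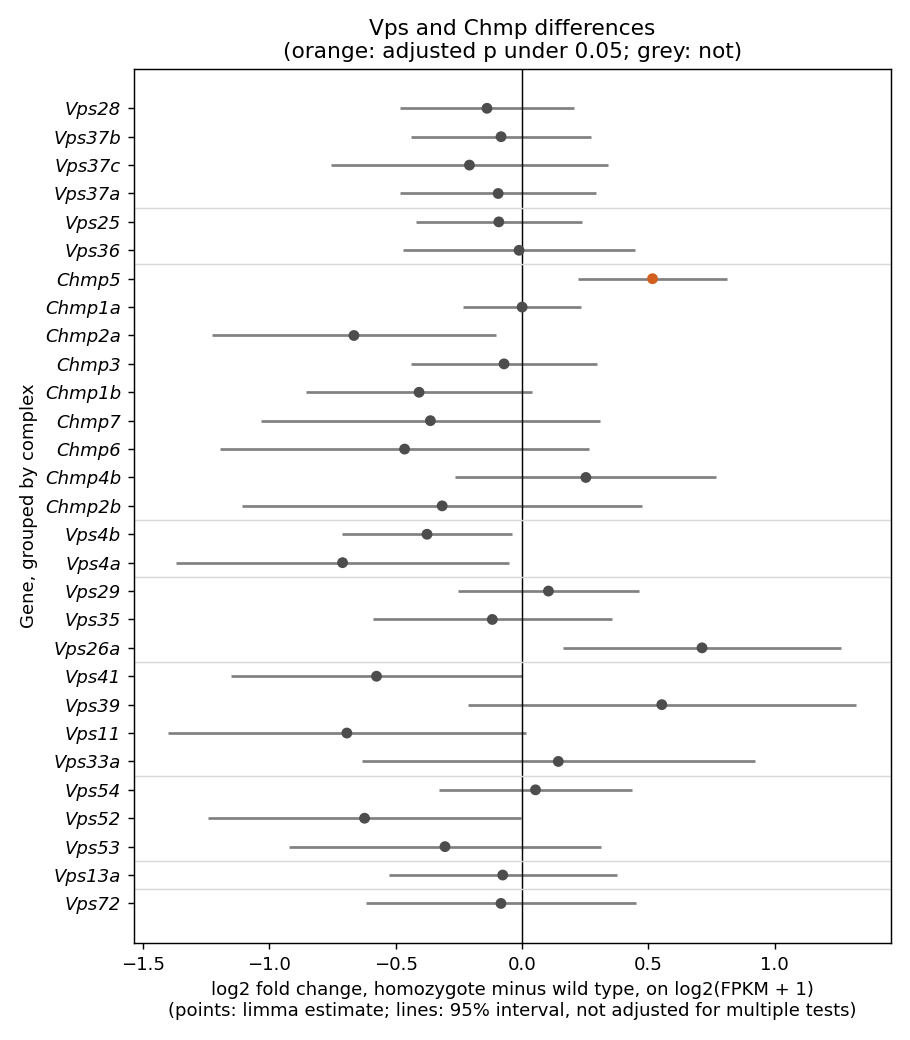
Log2 fold change, homozygote minus wild type, on the log2(FPKM + 1) scale for the 29 tested members (points, limma estimates) with 95% intervals (lines, not adjusted for multiple tests). Chmp5, in orange, is the gene that passed; the estimates run from -0.71 (Vps4a) to 0.71 (Vps26a).

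The 1 called member is an ESCRT-III gene. Chmp5 (chr4:40948407-40965303, plus strand) encodes a late-acting ESCRT-III protein that binds the VPS4 cofactor LIP5. Its levels were 186, 144 and 166 FPKM in wild-type libraries 1, 2 and 3, and 209, 260 and 239 FPKM in homozygous libraries 1, 2 and 3. Every homozygous library lay above every wild-type library. The rise was 1.43-fold, from 165 ± 21.0 to 236 ± 25.6 FPKM (SD, n = 3 each; log2 fold change 0.52, SE 0.13, limma adjusted p = 0.0445). The estimate stayed between 0.42 and 0.69 under the 20 alternatives, but the adjusted p rose to 0.0557 after rescaling without erythroid and top genes, 0.0613 with quantile normalization, 0.0665 after removal of a trend with the longest transcript length (0.0337 with the median length), 0.0727 with a replicate block, 0.129 without the variance trend and 0.132 with no filter. It was 0.15 and 0.125 without wild-type library 2 or 3, 0.153 and 0.137 without homozygous library 2 or 3, and 0.00419 without library 1 of both groups, the libraries richest in red cell mRNA.

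Bag1, which encodes a co-chaperone of HSP70 and starts beside Chmp5, measured 110, 150 and 151 FPKM in the wild type and 137, 126 and 144 FPKM in the homozygotes. These values overlapped, with a log2 difference of -0.0042 (95% interval -0.33 to 0.32, limma adjusted p = 0.991). The ratio of Chmp5 to Bag1 was 1.69, 0.958 and 1.09 in wild-type libraries 1, 2 and 3 and 1.53, 2.07 and 1.66 in homozygous libraries 1, 2 and 3. Wild-type library 1 had the lowest Bag1 value and a ratio inside the homozygous range, and the two-sided exact permutation test gave p = 0.3, where 3 libraries against 3 cannot go below 0.1.

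Chmp1a, the other abundant ESCRT-III gene, was at 131, 143 and 137 FPKM in the wild type and 126, 139 and 147 FPKM in the homozygotes. The homozygous range enclosed the wild-type range, with a log2 fold change of 0.00 (SE 0.10, 95% interval -0.23 to 0.23, limma adjusted p = 0.998). Chmp2a (chr7:13032010-13034807, minus strand), whose product forms the core of the membrane-cutting polymer, measured 31.7, 32.2 and 43.5 FPKM in the wild type and 31.5, 15.9 and 21.1 FPKM in the homozygotes. The lowest wild-type and the highest homozygous library nearly met, and the difference did not pass (log2 fold change -0.67, SE 0.25, limma adjusted p = 0.131). That highest homozygous value came from library 1, whose erythroid markers summed to 178193 FPKM beside 24541 and 31933 FPKM in homozygous libraries 2 and 3; the part of red cell RNA in the Chmp2a level was not tested. Without homozygous library 1 Chmp2a passed as lower (log2 fold change -0.92, limma adjusted p = 0.0208). It also passed without library 1 of both groups (-0.99, 0.0150), an alternative chosen after seeing the data. In the other 18 of 20 alternatives it did not pass. Over all 20 the estimate ran from -0.99 to -0.44 and the limma adjusted p reached 0.351.

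The remaining ESCRT-III genes all had overlapping groups. Chmp3, a partner of Chmp2a in the polymer, had means of 29.5 FPKM in the wild type and 28.1 FPKM in the homozygotes, and Chmp1b, a regulator of the polymer, 12.4 and 9.20 FPKM. Chmp7, which also acts at the nuclear envelope, had 7.14 and 5.26 FPKM, and Chmp6, which links ESCRT-II to ESCRT-III, 5.90 and 4.06 FPKM. Chmp4b, the main filament subunit, had 3.74 and 4.65 FPKM, and Chmp2b 2.14 and 1.40 FPKM. Of the 9 tested ESCRT-III genes, 1 rose, 0 fell and 8 did not pass. The called share was 11.1%, beside 8.36% of all tested genes. There were 3 estimates above 0 and 6 below (66.7%, beside 51.5% of all tested genes), the Chmp1a estimate being near 0.

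For both VPS4 ATPases, which disassemble ESCRT-III, the genotypes did not overlap, yet neither gene passed the test. Groups did not overlap for 30.7% of all tested genes, 15.8% being lower in the homozygotes. Vps4b (chr1:106764071-106796728, minus strand) was at 18.5, 20.7 and 18.7 FPKM in the wild type and 14.7, 16.0 and 13.4 FPKM in the homozygotes. Every homozygous library was lower, with a log2 fold change of -0.38 (SE 0.15, 95% interval -0.71 to -0.04, limma adjusted p = 0.152). Vps4a (chr8:107031222-107045755, plus strand) was at 4.33, 4.0 and 4.78 FPKM in the wild type and 3.52, 2.44 and 1.26 FPKM in the homozygotes. Its homozygous libraries were again all lower but far apart from each other, with a log2 fold change of -0.71 (SE 0.29, 95% interval -1.37 to -0.05, limma adjusted p = 0.167). Neither gene passed under any of the alternatives in which it was tested, where adjusted p ranged from 0.0965 to 0.364 for Vps4b and from 0.0647 to 0.384 for Vps4a.

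**Figure D4:**
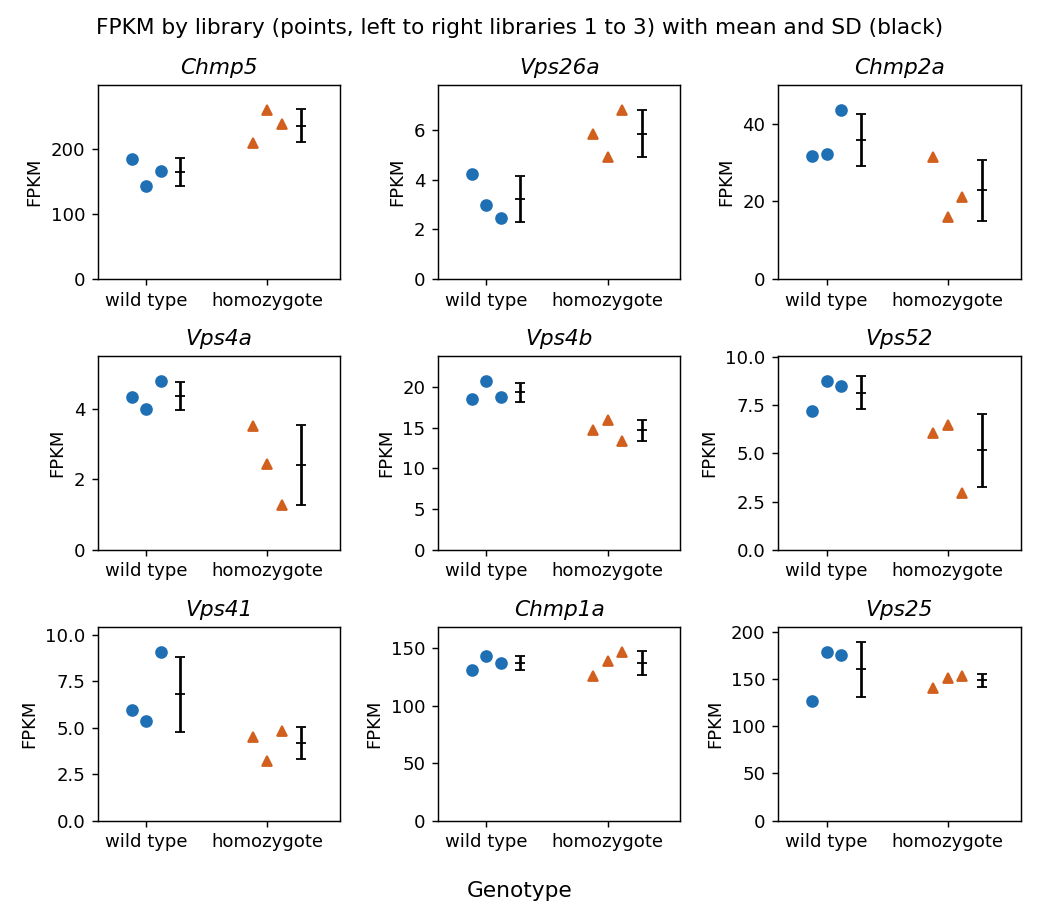
FPKM in each library for 9 members, with circles for wild-type and triangles for homozygous libraries and black marks for mean and SD; each axis starts at 0. Chmp5 and Vps26a are higher and Chmp2a, Vps4a, Vps4b, Vps52 and Vps41 lower in every homozygous library, Chmp1a and Vps25 overlap, and of the 9 genes Chmp5 passed the test.

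Upstream ESCRT complexes gave no call. Vps25 (chr11:101253707-101259549, plus strand), an ESCRT-II subunit that contacts CHMP6, was at 126, 179 and 175 FPKM in the wild type and 141, 152 and 153 FPKM in the homozygotes. The homozygous values lay inside the wild-type range (log2 fold change -0.09, SE 0.14, 95% interval -0.42 to 0.24, limma adjusted p = 0.745). Vps36, which binds ubiquitin in the same complex, had means of 7.93 and 7.76 FPKM. In ESCRT-I, Vps28, which joins it to ESCRT-II, had 96.8 ± 18.5 and 87.1 ± 7.5 FPKM (SD, n = 3 each). The Vps37 subunits had wild-type and homozygous means of 8.79 and 8.18 FPKM for Vps37a, 19.5 and 18.4 for Vps37b and 13.3 and 11.5 for Vps37c. All 6 tested Vps members of both complexes had estimates below 0, between -0.21 and -0.01, and their groups overlapped. Of all tested genes, 51.5% had an estimate below 0. Among partners without a Vps symbol, Tsg101 (-0.24) and Snf8 (-0.02) were below 0, and Ubap1 (0.03) and Mvb12b (0.05) above.

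In retromer, 1 of 3 tested genes had groups that did not overlap (33.3%, beside 30.7% of all tested genes). Vps26a (chr10:62455235-62486805, minus strand), which encodes the arrestin-like subunit that docks sorting nexins and whose promoter windows hold both copies of the palindrome printed above, was at 4.24, 2.96 and 2.45 FPKM in the wild type and 5.83, 4.92 and 6.80 FPKM in the homozygotes. Every homozygous library was higher, but the difference did not pass (log2 fold change 0.71, SE 0.24, 95% interval 0.16 to 1.26, limma adjusted p = 0.108). The other 2 tested subunits had overlapping groups, with wild-type and homozygous means of 32.7 and 35.3 FPKM for Vps29 and 12.6 and 11.6 FPKM for the scaffold Vps35. Vps26b, the paralogue of Vps26a, lay at 0.748 to 1.20 FPKM in the wild type and 0.207 to 1.68 FPKM in the homozygotes and was not tested.

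Genes of the HOPS, CORVET and CHEVI group were scarce, 4 of 8 reaching a mean of 1 FPKM. Vps41 (chr13:18717286-18866811, plus strand), a HOPS subunit that binds the Rab side of the tether, was at 5.94, 5.37 and 9.08 FPKM in the wild type and 4.53, 3.19 and 4.81 FPKM in the homozygotes. The groups did not overlap, and the difference did not pass (log2 fold change -0.58, SE 0.25, limma adjusted p = 0.197). Vps11, a core subunit, had means of 3.19 and 1.58 FPKM and an overlap between wild-type library 1, at 1.96 FPKM, and homozygous library 1, at 2.30 FPKM (log2 fold change -0.69, limma adjusted p = 0.206). Vps39, the other Rab-facing HOPS subunit, pointed the other way, with means of 2.00 and 3.17 FPKM and wild-type library 1 lowest at 0.728 FPKM (log2 fold change 0.55, limma adjusted p = 0.354). Vps33a, the SNARE-binding subunit with the palindrome, had 1.22 and 1.53 FPKM and overlapping groups.

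The granule gene Vps33b stood at 0 to 0.352 FPKM and its partner Vipas39 at 2.73 to 6.72 FPKM over the 6 libraries. Vps33b was too low to be tested. Vipas39 had overlapping groups, with means of 3.91 and 5.56 FPKM in the wild type and the homozygotes (log2 fold change 0.46, SE 0.30, limma adjusted p = 0.402).

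GARP and the remaining genes gave no call either. Vps52 (chr17:33955812-33967035, plus strand), a GARP core subunit, was at 7.18, 8.73 and 8.50 FPKM in the wild type and 6.02, 6.44 and 2.96 FPKM in the homozygotes. All homozygous libraries were lower, library 3 by far the most, and the difference did not pass (log2 fold change -0.62, SE 0.27, limma adjusted p = 0.195). An exon of Vps52 overlaps the ribosomal protein gene Rps18 on the other strand, which was listed at 4.52 to 6.64 FPKM in the wild type and 8.27 to 11.7 FPKM in the homozygotes (log2 fold change 0.87, limma adjusted p = 0.0485). The libraries do not mark strand, so fragments from the shared bases cannot be told apart. Wild-type and homozygous means were 17.9 and 18.7 FPKM for Vps54 and 1.77 and 1.27 FPKM for Vps53, both GARP subunits. Vps13a, a lipid transfer protein gene whose loss causes chorea-acanthocytosis in people, had 4.69 and 4.38 FPKM, and the chromatin gene Vps72 3.26 and 2.97 FPKM.

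Besides the genes already named, the members under a mean of 1 FPKM were Vps8, Vps51, Vps16, Vps45, Vps13b, Vps9d1, Vps13d, Vps18 and Vps13c, with means from 0.00581 to 0.717 FPKM. They were not tested, and several were listed at 0 in single libraries, where a 0 can also be a failed estimate. Vps16, the third gene with the palindrome, was listed at 0.415, 1.02 and 0 FPKM in the wild type and 0.0785, 0 and 0.0985 FPKM in the homozygotes. The palindrome was thus found in the promoter windows of genes at 0.268 (Vps16), 1.38 (Vps33a) and 4.53 FPKM (Vps26a) on average. All lay below the median of the tested members (7.84 FPKM), but Vps26a was above the median of all members (4.36 FPKM). Vps51, a GARP and EARP subunit, was untested with groups that did not overlap, at 0.985, 0.852 and 0.545 FPKM in the wild type and 0.340, 0.171 and 0.325 FPKM in the homozygotes. It was picked out after its values, all under 1 FPKM, had been seen. The share of genes without overlap was 30.7% over all tested genes and was not computed for untested genes.

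For 12 of the 29 tested members an annotated exon overlaps another gene, on the other strand for 9 and on the same strand for 3, among them Vps25 (Ramp2), Vps28 (Tonsl), Vps29 (Fam216a), Vps35 (Orc6), Vps4a (Pdf), Vps53 (Glod4) and Vps52. Ramp2, Tonsl, Fam216a, Orc6 and Pdf were each under 3 FPKM in every library, and Glod4 was at 4.52 to 13.8 FPKM. Near-identical copies, at least 95% identical over 200 bases, are annotated elsewhere for Chmp1a, Chmp2a, Chmp3 and Vps4b, and for the partners Tsg101 and Snf8, so these levels are less certain. Chmp5 had neither an exon overlap nor such a copy.

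Of 83 related genes found in the tables, partners of these complexes and other genes of granule formation, 57 were tested, and 1 rose and 2 fell, 5.26% beside 8.36% of all tested genes. The median log2 fold change was -0.17 over the 57 and -0.01 over all tested genes. Pdcd6ip encodes ALIX, which recruits CHMP4 filaments to membranes. It was at 38.1, 37.0 and 37.9 FPKM in the wild type and 24.1, 24.6 and 23.6 FPKM in the homozygotes, 2 tight and separate groups. It fell by 0.62 on the log2 scale (SE 0.12, limma adjusted p = 0.0169).

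Becn1 encodes Beclin 1 of the class III phosphatidylinositol 3-kinase, which makes the lipid that marks early endosomes. It was at 545, 475 and 494 FPKM in the wild type and 697, 837 and 830 FPKM in the homozygotes, and every homozygous library was higher. It rose by 0.64 on the log2 scale (SE 0.10, limma adjusted p = 0.0110). An exon of Becn1 overlaps Cntd1 on the other strand. The catalytic subunit Pik3c3 and the regulatory subunit Pik3r4 of the same kinase had means under 1 FPKM and were not tested. The other fall was that of Rab32, from 8.32 ± 3.08 to 0.815 ± 0.187 FPKM (SD, n = 3 each; log2 fold change -2.30, SE 0.30, limma adjusted p = 0.00794). Its size depended on the pseudocount, at -3.15 with 0.1 and -1.17 with 5.

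The Pdcd6ip call was lost without the variance trend (limma adjusted p = 0.0656), without wild-type library 2 (0.0685) or 3 (0.0701) and without homozygous library 2 (0.0647) or 3 (0.0749). The Becn1 call was lost with no filter (0.0505), without the variance trend (0.0759), without wild-type library 2 (0.0591) or 3 (0.0549) and without homozygous library 2 (0.0612) or 3 (0.0614). The Rab32 call was lost without the variance trend (0.0623), without wild-type library 2 (0.0518) and without homozygous library 3 (0.0507).

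By group, the ESCRT-I, II and III partners had 0 rises and 1 fall in 9 tested genes, the class III kinase genes 1 rise and 0 falls in 3, and the granule biogenesis genes of AP-3, BLOC and BEACH type 0 rises and 1 fall in 15. ESCRT-0, the retromer and retriever group, the HOPS and CORVET partners and the trans-Golgi tethers had no call in 2, 12, 13 and 3 tested genes, where 1, 2, 0 and 0 had an unadjusted limma p under 0.05. In the groups with a call, the unadjusted limma p was under 0.05 for 11.1% of the ESCRT partners and 33.3% of the class III kinase genes. The same held for 40% of the granule biogenesis genes, 2 higher and 4 lower in the homozygotes. Of all tested genes, 8.36% were called and 25.4% had an unadjusted limma p under 0.05. Tsg101 and Snf8, the partners of the Vps subunits in ESCRT-I and ESCRT-II, had overlapping groups, with means of 16.2 and 13.5 FPKM for Tsg101 (limma adjusted p = 0.416) and 16.4 and 15.9 FPKM for Snf8 (0.980) in the wild type and the homozygotes. Nbeal2, the BEACH-domain gene required for alpha granules, had a mean of 0.892 FPKM and was not tested.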

How the data were processed

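RNA of 6 mouse platelet libraries was measured, 3 per genotype, with group and library number taken from the titles. Per the labels' protocols, SMART-Seq HT and Nextera XT kits were used, which do not mark strand. The values the authors deposited are FPKM per gene symbol, 1 table per library. The submitters' processing notes name Cuffdiff 2.2.1, TopHat2 2.1.1, SAMtools 0.1.18, Bowtie2 2.2.8 and the mm10 build; settings and annotation are not given in the sources used here.

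The members, lists and tests were chosen with earlier results of these data known. The test was limma (version 3.58.1, R 4.3.3) on log2(FPKM + 1) for genes whose FPKM averaged 1 or more, with a genotype term, a variance trend and Benjamini-Hochberg adjustment over 4859 genes; the script was tested on simulated data. Folds are on that scale, which understates low genes. No pair of replicates of a group shared an identical value above 0. Library values were given for members that passed, the 3 most abundant, and up to 8 others whose groups did not overlap, by size; any further library values were chosen after they were seen. Overlaps, lengths and copies came from GENCODE M21 (GRCm38) with blastn 2.17.0, promoters from RefSeq. Alternatives changed the pseudocount (0.1, 5), filter, scaling, variance model, weights, length trend, replicate block and libraries. The length trend first used the median transcript length and was changed to the longest after a first run, because medians included short fragments; the median is kept as an alternative added after seeing the data.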

Additional observations from a re-analysis of the deposited data

How the results depend on the processing

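Chmp5 alone was called among the members; 0 members passed with no filter, quantile normalization, rescaling without erythroid and top genes, no variance trend, removal of the longest-length trend or the replicate block (4 to 9 at an unadjusted limma p under 0.05), and 2 passed, Chmp5 and Chmp2a, without both libraries richest in haemoglobin mRNA, an alternative chosen after seeing the data. Removal of the median-length trend, likewise added, kept 1. Leaving out 1 library gave 0 to 2 members. Calls over all genes were 107 with no filter, 0 with no variance trend (1197 unadjusted), 728 without both haemoglobin-rich libraries, and 0 (994 unadjusted, without homozygous library 3) to 610 with 1 library left out. Related genes had 0 calls with no variance trend (12 unadjusted), 6 with sample weights, 5 after length removal, 7 without both haemoglobin-rich libraries, and 0 to 7 with 1 library left out. The members' median log2 fold change of -0.09 became -0.17 after rescaling, where that of all tested genes moved from -0.01 to -0.078, and -0.16 without both haemoglobin-rich libraries; it was -0.15 and -0.14 without wild-type library 1 or 2. Chmp1a, at 0.00045 and so without a direction of its own, changed sign to -0.025 with quantile normalization and -0.074 after rescaling, which shifted all genes alike, and ranged from -0.049 to 0.059 with 1 library left out (below 0 without wild-type library 1 or homozygous library 2 or 3). Snf8 changed sign to 0.0023 with quantile normalization and ranged from -0.23 to 0.18 with 1 library left out (above 0 without library 3 of either group). Leaving out libraries raised the calls over all genes in some cases and lowered them in others. The cause of these changes was not tested. For the replicate block, same-numbered libraries had deviations correlated at 0.158, 0.0235 and 0.141. Homozygous library 2 correlated best with wild-type library 3 (0.0674), and the other differently numbered pairs had negative correlations. All are small, so whether the numbers pair the libraries cannot be told from them. FPKM without counts gives no interval for single low values.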
